A study of Mus musculus with 2 samples.

Results

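The cytosolic ribosomal protein genes of natural killer (NK) cells are described here across 10 populations of mouse NK cells. They were taken by name from the count matrix: every symbol that begins with Rpl or Rps and a digit, plus Rplp0, Rplp1, Rplp2 and Rpsa, without the ribosomal S6 kinases and without the columns marked as pseudogenes by -ps in the symbol. The rule gave 86 of the 16789 symbols. Of these, 77 encode core ribosomal proteins, 46 of the large subunit and 31 of the small subunit. Another 8 are paralogs or retrogene copies (Rpl3l, Rpl6l, Rpl7l1, Rpl22l1, Rpl36al, Rpl39l, Rps27l and Rps27rt). The last, Rps19bp1, matches by spelling but is named for a protein that binds Rps19.

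Ribosomal proteins assemble with ribosomal RNA into the large and small subunits that translate messenger RNA. Most of their transcripts begin with a tract of pyrimidines at the 5′ end (a terminal oligopyrimidine, or TOP, tract), through which the kinase mTORC1 and the RNA-binding protein Larp1 tie their translation to nutrients and growth signals. Lymphocytes are known to make more ribosomes when they are activated and divide. A transcript count does not measure that translational step.

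NK cells are innate lymphocytes known for killing infected and tumour cells, and here they were sorted from C57BL/6 mice 12 weeks old as lineage-negative, NK1.1-positive and CD49b-positive cells. Per the labels, tumours were grown under the skin from MC38, a colon carcinoma line of the mouse, and the diet was either ad libitum or a cyclic fast. Hashtagged cells of fasted, refed and ad libitum mice from tumour, bone marrow and spleen, and of a naive spleen population, shared 1 lane of a droplet run in which each captured transcript carries a unique molecular identifier (UMI). The sources used here do not give what naive stands for, how long mice fasted or were refed, or how many mice gave a population. Each population is thus 1 sample: no difference has a replicate check, no p-value was computed, and every interval covers counting error only.

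After doublets and 2 clusters of other cell types were left out, 7255 cells remained, from 43 in the tumour ad libitum population to 1783 in the spleen ad libitum population. Summed UMIs ranged from 546428 to 8756505 per population. All 8 NK markers checked were measured in each comparison, with summed levels of 11932 to 29472 counts per 1000000 UMIs (CPM). B cell markers summed to at most 3.21 CPM and T cell markers to 569 to 847 CPM. Monocyte or macrophage markers summed to 4.99 to 447 CPM, the most in bone marrow fasted cells, and dendritic cell markers to 18.04 to 141 CPM, the most in bone marrow refed cells. Neutrophil markers reached 12422 CPM in bone marrow fasted cells, against 9.15 to 45.8 CPM in the other 9 populations. A single bone marrow fasted cell held 7721 of the 7750 neutrophil marker UMIs there, and without it the ribosomal protein share of that population was 28.4% in place of 27.8%.

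To show the starts of members that the results turn on, 15 bases on each side of the annotated start of 6 of them are printed, on GRCm38.p6 from RefSeq. Capitals mark a C followed by at least 5 pyrimidines that begins within 10 bases of the start, from the C nearest to the start, so that a run can reach further upstream than the capitals. The last window, of Rpl22, holds none.
Rps27: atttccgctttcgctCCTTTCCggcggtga
Rps27l: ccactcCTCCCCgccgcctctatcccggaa
Rps2: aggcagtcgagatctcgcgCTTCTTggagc
Rpl35: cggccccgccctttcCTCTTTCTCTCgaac
Rpl22l1: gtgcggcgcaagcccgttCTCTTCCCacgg
Rpl22: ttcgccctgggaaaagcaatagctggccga
They lie at chr3:90213634-90213663 (minus strand), chr9:66946071-66946100 (plus strand, the first of 2 listed starts), chr17:24720048-24720077 (plus strand), chr2:39005117-39005146 (minus strand), chr3:28805493-28805522 (plus strand) and chr4:152325711-152325740 (plus strand, the first of 2 listed starts), in the order printed. The second listed starts of Rps27l and Rpl22 held no tract. A tract of this kind was found in 35 of the 65 member genes with a listed start (53.8%), in 31 of 57 core genes (54.4%) and in 4 of 8 others, against 5910 of all 27025 genes in the table (21.9%). Only the strand of the gene was read, and a match of letters is a description of the window, not a mapped start.

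Ribosomal protein transcripts made up 22.6% to 31.6% of all UMIs, with the tumour and bone marrow populations above every spleen population. In the tumour the share was 29.4% in ad libitum, 31.6% in fasted and 29.4% in refed cells. In bone marrow it was 27.3% in ad libitum, 27.8% in fasted and 29.0% in refed cells. In the spleen it was 23.1% in naive, 22.6% in ad libitum, 23.6% in fasted and 24.6% in refed cells. The lowest bone marrow value thus stood above the highest spleen value. Large-subunit UMIs outnumbered small-subunit UMIs by a factor of 1.14 to 1.18 in all 10 populations, so the balance between the subunits differed little.

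**Figure D1:**
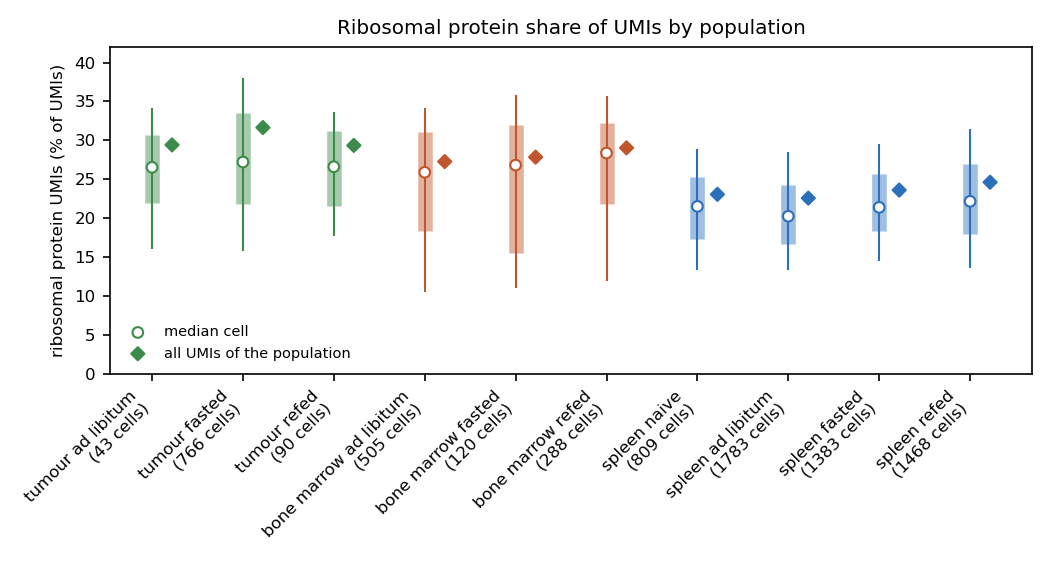
Ribosomal protein UMIs as a percentage of UMIs (vertical axis) in each of the 10 populations (horizontal axis, with the number of cells). Diamonds give all UMIs of a population, open circles the median cell, thick bars the middle 50 percent of cells and thin lines the 10th to 90th percentile of cells. Tumour and bone marrow diamonds lie between 27.3% and 31.6%, above the spleen diamonds at 22.6% to 24.6%, while the cells of every population overlap widely.

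Most members were higher in tumour and bone marrow than in spleen. With ad libitum feeding the summed members were 1.21-fold higher in bone marrow than in spleen (log2 0.27, 95% interval 0.27 to 0.28) and 1.30-fold higher in tumour than in spleen (log2 0.38, interval 0.37 to 0.39). In fasted mice they were 1.18-fold higher in bone marrow than in spleen (log2 0.24, interval 0.23 to 0.25) and 1.34-fold higher in tumour than in spleen (log2 0.42, interval 0.42 to 0.43). With ad libitum feeding, that tumour stood above bone marrow depended on the weighing of cells. The bone marrow and tumour ratios to spleen were 0.13 and 0.086 with equal cluster weights, and 0.25 and 0.23 without clusters 10 and 11. Among cells of 3000 to 6000 UMIs they were 0.041 and -0.21. The equal-weight tumour value rests on cluster 7 alone, the only one with at least 5 cells in both populations. That of the depth window rests on 5 tumour cells. In fasted mice the ratios were 0.19 and 0.26 with equal cluster weights and 0.27 and 0.36 without clusters 10 and 11. The fasted order turned in the depth window, at 0.19 and 0.12. TMM factors and the same weight per cell left tumour above in both feeding states. Markers of cell state moved with the tissues. In ad libitum bone marrow against spleen, 9 of 9 measured dividing-cell markers were higher (median log2 2.18) and 8 of 8 mature NK markers lower (median -2.00). In ad libitum tumour against spleen, 8 of 9 dividing-cell markers were higher (median 0.80) and 7 of 8 mature NK markers lower (median -3.49), though the mature NK sum was 5203 CPM in tumour against 3135 CPM in spleen. Of the 8 general NK markers, 8 were lower in bone marrow and 7 in tumour. The part of these markers in the tissue difference was not tested.

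A member was counted as past the fold at a log2 ratio of CPM + 5 of at least 0.25 either way, among the 84 members that reached 20 CPM. Those 84 reached it in every population, and Rpl39l (34 UMIs in all) and Rpl3l (1 UMI) did not. In bone marrow against spleen with ad libitum feeding, 50 of 84 members were past the fold higher and 1 lower, where 23.7% of all 5577 genes were higher and 29.6% lower. In tumour against spleen with ad libitum feeding, 56 were higher and 2 lower, against 26.1% and 46.9% of all genes. In fasted mice 35 members were higher and 1 lower in bone marrow than in spleen (21.4% and 28% of all genes), and 65 were higher and 0 lower in tumour than in spleen (20.6% and 48.3% of all genes). The members' median log2 ratio was 0.29 and 0.40 in the ad libitum bone marrow and tumour comparisons, where the median over all genes was -0.06 and -0.20. In the fasted bone marrow and tumour comparisons the members' median was 0.22 and 0.45, with -0.05 and -0.23 over all genes. Scaling by TMM factors, which trims the genes that differ most, moved the median of all genes by 0.21 in tumour against spleen with ad libitum feeding and by 0.33 in fasted mice, and the counts of members higher and lower were then 78 and 1, against 36.3% and 35.1% of all genes, and 82 and 0, against 38.6% and 24.8%. With the same factors bone marrow against spleen gave 52 and 1 with ad libitum feeding (24.4% and 28% of all genes) and 39 and 1 in fasted mice (22% and 26.4%).

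Among the measured members, Rps2 had the highest ratio in 3 of the 4 tissue comparisons, and Rps20 (0.57) in fasted bone marrow against spleen. Rps2, which lies in the small subunit near the path of the entering messenger RNA, had 4529, 4032 and 4603 CPM in tumour ad libitum, fasted and refed cells. It had 3756, 2656 and 4079 CPM in bone marrow ad libitum, fasted and refed cells, and 2096, 2082, 1856 and 2470.1 CPM in spleen naive, ad libitum, fasted and refed cells. No spleen population reached the lowest bone marrow or tumour value. The log2 ratio was 1.12 (interval 1.06 to 1.18) in tumour against spleen and 0.85 (interval 0.82 to 0.88) in bone marrow against spleen with ad libitum feeding. In fasted mice it was 1.12 (interval 1.08 to 1.15) and 0.52 (interval 0.44 to 0.59).

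Rps20 and Rps19 of the small subunit and Rpl35 of the large subunit followed the same tissue order. Rps20 had 6440.0, 5980.1 and 6342 CPM in tumour ad libitum, fasted and refed cells, 5045, 4602 and 5482 CPM in the same order in bone marrow, and 3100.3 to 3652 CPM in the 4 spleen populations. Rpl35 had 798, 759 and 809 CPM in tumour ad libitum, fasted and refed cells, 563, 514 and 598 CPM in bone marrow, and 392 to 456 CPM in spleen. For both genes every tumour value stood above every bone marrow value, and every bone marrow value above every spleen value. Rps19, whose human gene is the one most often mutated in Diamond-Blackfan anaemia, was 0.61 higher on the log2 scale in bone marrow and 0.79 higher in tumour than in spleen with ad libitum feeding. In tumour against spleen with ad libitum feeding, the Rps2 ratio was 0.20 among cells of 3000 to 6000 UMIs, of which the tumour ad libitum population held 5. It was 0.91 with the Rps2 UMIs of each population's highest cell taken out and the totals left unchanged, which by itself lowers the level in the small tumour population. In bone marrow against spleen with ad libitum feeding the Rps2 ratio was 0.55 among cells of 3000 to 6000 UMIs.

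Several other members with known roles in or beside the ribosome were also higher, some by less than the fold. Their values lay on both sides of the members' medians of 0.29 in bone marrow and 0.40 in tumour. With ad libitum feeding, Rps6, the substrate of the S6 kinases, was 0.43 higher in bone marrow and 0.57 higher in tumour than in spleen on the log2 scale. Rpsa, also known as a laminin receptor, was 0.54 higher in each. Rplp0, the base of the P stalk to which elongation factors bind, was 0.57 and 0.72 higher, and its partners Rplp1 and Rplp2 were higher by 0.29 and 0.23 in bone marrow and by 0.22 and 0.11 in tumour. Rpl5 and Rpl11, which bind Mdm2 when ribosome assembly fails, were 0.15 and 0.33 higher in bone marrow and 0.27 and 0.29 higher in tumour. Rps27a, made as a fusion to ubiquitin, was 0.27 and 0.47 higher, and Rpl10, a protein that joins late in large-subunit assembly, was 0.17 and 0.35 higher.

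Some members hardly varied or went the other way. Rpl37a spanned 3882 to 4541 CPM over the 10 populations, the narrowest range of the core members (0.23 on the log2 scale), followed by Rps29 (0.27) and Rpl30 (0.31). The median range was 0.52, and the widest was that of Rps2 at 1.31. Rps27 was lower in bone marrow and tumour than in spleen with ad libitum feeding, with log2 ratios of -0.27 (interval -0.30 to -0.24) and -0.54 (interval -0.62 to -0.46). Of the 77 core members, 52 had their highest value in tumour fasted cells and 45 their lowest in spleen ad libitum cells.

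**Figure D2:**
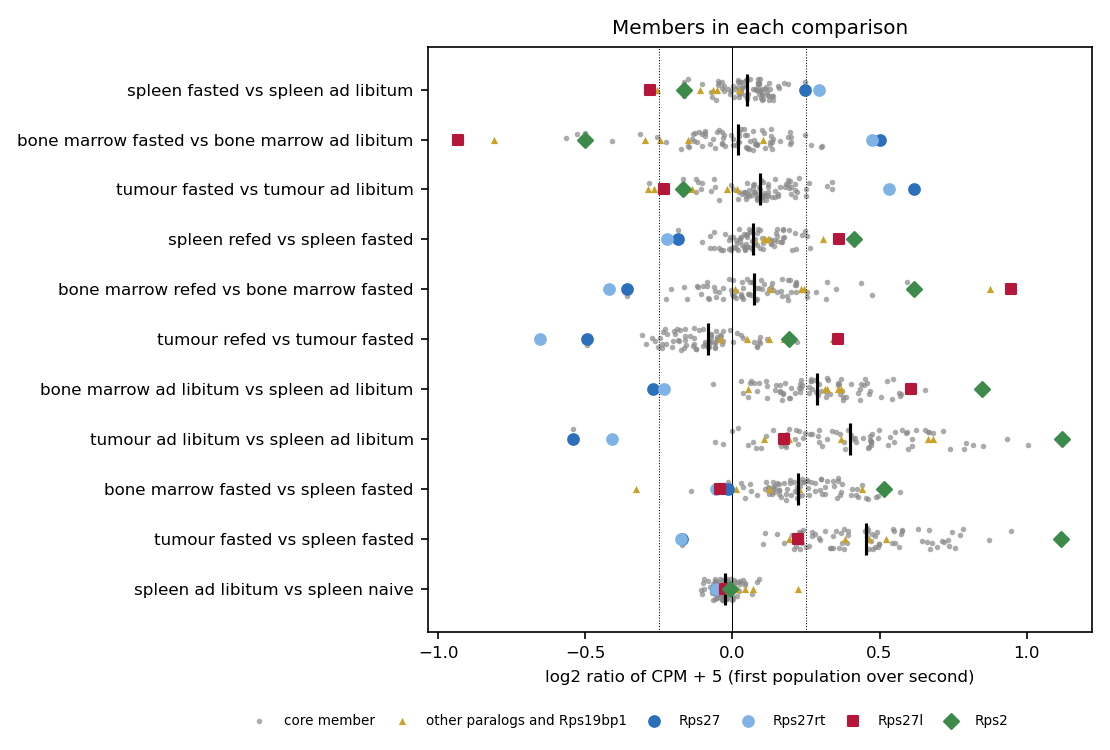
Log2 ratio of CPM + 5 (horizontal axis) of the 84 measured members in each of 11 comparisons (vertical axis, first population over second). Each point is 1 member, black bars are the median over the 84, and dotted lines mark 0.25 either way. Rps2 is at or near the high end in all 4 tissue comparisons, and Rps27 and Rps27l lie towards opposite ends in the fasted and refed comparisons of all 3 tissues.

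Over all cells, fasting and refeeding moved the summed members little. Against ad libitum cells, fasted cells were 1.05-fold higher in spleen (log2 0.06), 1.02-fold higher in bone marrow (log2 0.03) and 1.08-fold higher in tumour (log2 0.11). Refed cells were 1.04-fold higher than fasted cells in spleen (log2 0.06) and in bone marrow (log2 0.06), and lower in tumour (log2 -0.11). Spleen ad libitum cells were close to spleen naive cells (log2 -0.03). These small shifts depend on how cells are weighed. With equal weight for each cluster of the deposit the fasted to ad libitum ratio was -0.04 in spleen and -0.02 in bone marrow, and in tumour it was -0.04 over the 2 clusters that allowed it.

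Few members passed the fold between diets, and as shares of 84 their counts lay below the background of all genes. That background holds genes from 20 CPM up, where counting error alone can pass the fold in the smaller populations. Most members lay far above that level. The shares were not matched for level, so they do not show that members were steadier than other genes. In fasted against ad libitum spleen, 1 of 84 members was past it higher and 2 lower, against 10.2% and 9.7% of all genes. In bone marrow 5 were higher and 9 lower (29.7% and 30.7% of all genes), and in tumour 7 higher and 3 lower (28.3% and 27.3%). For refed against fasted cells, 5 were higher and 0 lower in spleen (9.24% and 15.9%), 12 higher and 2 lower in bone marrow (27.7% and 34.1%), and 2 higher and 7 lower in tumour (24.8% and 21.7%). Spleen ad libitum against naive cells gave 0 in either direction, against 4.47% and 4.7% of all genes. With TMM factors the counts higher and lower in fasted against ad libitum cells were 0 and 2 in spleen (6.63% and 14.8% of all genes), 2 and 11 in bone marrow (25.5% and 34.4%) and 21 and 0 in tumour (33.5% and 22.7%). In refed against fasted cells they were 16 and 0 in spleen (16.2% and 8.43%), 28 and 2 in bone marrow (34.8% and 25.9%) and 2 and 14 in tumour (21.5% and 25.4%). Spleen ad libitum against naive cells gave 1 and 0 (6.33% and 2.94%). With these factors the refed spleen count was the one that lay slightly above its background.

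Within that small overall shift, Rps27 and its paralog Rps27l moved in opposite directions with fasting. Rps27 encodes a zinc-finger protein of the small subunit, and Rps27l encodes a near-identical protein and is known as a target gene of p53. Rps27 had 3713 CPM in spleen naive, 3572 in ad libitum, 4239.6 in fasted and 3733 in refed cells. In bone marrow it had 2961, 4198 and 3276 CPM, and in tumour 2450.5, 3761 and 2669.6 CPM, in ad libitum, fasted and refed cells. The fasted population was the highest of its tissue each time.

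Rps27l showed the mirror image. It had 258 CPM in spleen naive, 254 in ad libitum, 208 in fasted and 269 in refed cells. In bone marrow it had 389.7, 202 and 394 CPM, and in tumour 287, 244 and 314 CPM, in ad libitum, fasted and refed cells. The fasted population was the lowest of its tissue each time. In tumour, however, the fasted and ad libitum values were not apart beyond counting error. Their log2 ratio was 0.02 with the Rps27l UMIs of each population's highest cell taken out and the totals left unchanged. That by itself lowers the level most in the small tumour ad libitum population. The value of 0.02 thus does not show whether the ratio rests on single cells.

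For fasted against ad libitum cells the log2 ratio of Rps27 was 0.25 in spleen (interval 0.22 to 0.27), 0.50 in bone marrow (0.44 to 0.56) and, in tumour, 0.62 (0.54 to 0.70). That of Rps27l was -0.28 (-0.38 to -0.18), -0.93 (-1.20 to -0.68) and -0.23 (-0.47 to 0.01) in the same tissues. Refed against fasted cells gave -0.18, -0.36 and -0.49 for Rps27 and 0.36, 0.95 and 0.36 for Rps27l in spleen, bone marrow and tumour. The fasted population is shared by both sets of ratios, so the return after refeeding is not an independent observation. Rps27rt, a retrogene copy of Rps27 on chromosome 9 (114982366 to 114982739 in GENCODE M21), followed Rps27 with fasted to ad libitum ratios of 0.30, 0.47 and 0.53. The sources used here do not give how reads that match both were assigned, so the 2 cannot be told apart as sources of the signal.

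**Figure D3:**
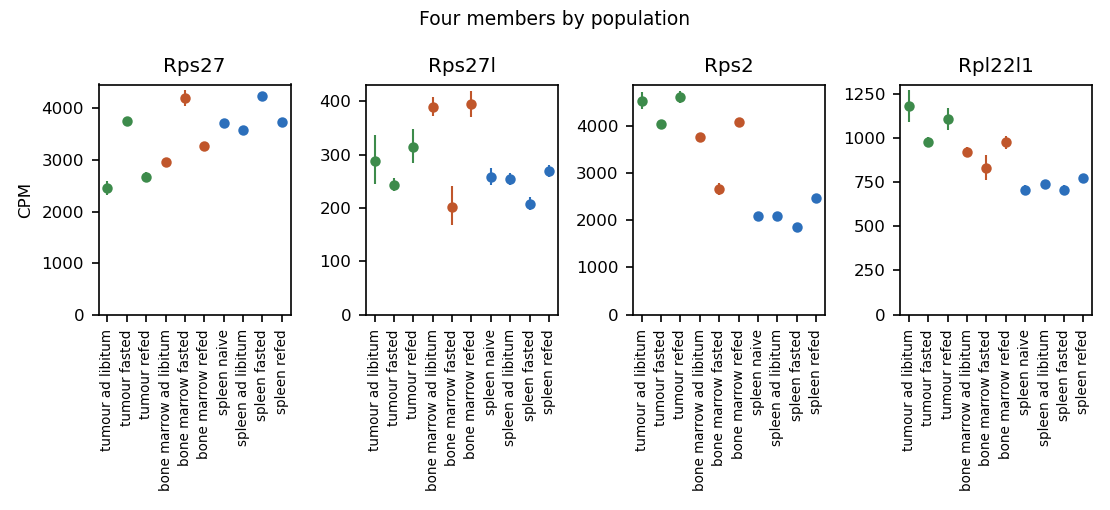
CPM (vertical axis, starting at 0) of Rps27, Rps27l, Rps2 and Rpl22l1 in each population (horizontal axis), with 95% Poisson intervals. Rps27 is highest and Rps27l lowest in the fasted population of each tissue, and Rps2 is at 2656 CPM or more in every tumour and bone marrow population and at 2470.1 CPM or less in every spleen population.

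Taken as a ratio, which needs no scaling between populations, the spleen had 14.4 Rps27 UMIs per Rps27l UMI in naive, 14.1 in ad libitum, 20.4 in fasted and 13.9 in refed cells. The bone marrow had 7.60 in ad libitum, 20.8 in fasted and 8.31 in refed cells. The tumour had 8.53 in ad libitum, 15.4 in fasted and 8.49 in refed cells. The 3 fasted values thus lay between 15.4 and 20.8, above the 7 other values of 7.60 to 14.4. The intervals of the fasted and ad libitum ratios did not overlap in any of the 3 tissues. Leaving out the bone marrow fasted cell with the neutrophil markers gave 21.2. Among cells of 3000 to 6000 UMIs, added after seeing the data, the ratio was 21.4 in fasted, 15.2 in ad libitum and 15.5 in refed spleen, and 25.3 in fasted, 14.3 in ad libitum and 14.2 in refed bone marrow. In tumour it was then 34.6 in fasted and 21.2 in refed cells, and 46 in ad libitum cells on 1 Rps27l UMI, so the fasted and other values no longer separated over all 3 tissues.

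The ratio also differed between the clusters of cells that the authors deposited. It was lowest in cluster 10 at 4.55, where the 10 dividing-cell markers summed to 9496 CPM, next lowest in cluster 11 at 7.01, and highest in cluster 0 at 24.98. Cluster 10 and cluster 11 cells carried the most UMIs, with medians of 17344 and 26936 per cell. Cluster 10 held 17.8% of bone marrow ad libitum, 5% of fasted and 15.6% of refed cells, and cluster 11 held 20.9% of tumour ad libitum, 6.66% of fasted and 26.7% of refed cells. The dividing-cell markers were lower in fasted than in ad libitum cells, at 1123 against 1656 CPM in spleen, 2786 against 5616 CPM in bone marrow and 1149 against 2092 CPM in tumour. Their part in the Rps27 to Rps27l difference was not tested beyond the comparisons that follow.

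With clusters 10 and 11 left out, a choice made after seeing the data, the ratio was 20.4 in fasted against 14.7 in ad libitum spleen and 23.0 in fasted against 12.4 in ad libitum bone marrow. In tumour it was 21.96 in fasted (interval 20.5 to 23.6) against 19.7 in ad libitum cells, whose interval of 13.0 to 31.5 covered the fasted value. The tumour ad libitum population then rested on 31 cells and 23 Rps27l UMIs, so a diet difference there was not detectable at this depth. Within single clusters of at least 20 cells in each population, the ratio was higher in fasted than in ad libitum spleen in 7 of 8 clusters and in bone marrow in 3 of 3. It was lower in refed than in fasted cells in 7 of 8 spleen, 3 of 3 bone marrow and 3 of 3 tumour clusters. The exception in spleen was cluster 9, the one with the fewest UMIs per cell, with 19 and 12 Rps27l UMIs in fasted and ad libitum cells. In tumour the refed and fasted intervals overlapped in cluster 0 (19.8 and 28.3) and cluster 11 (6.49 and 6.93), but not in cluster 7 (5.87 and 21.1). In bone marrow cluster 6, with 6 Rps27l UMIs in fasted cells, the fasted interval overlapped those of ad libitum and refed cells. In bone marrow cluster 7 it overlapped that of ad libitum cells. Intervals of some spleen clusters overlapped as well.

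**Figure D4:**
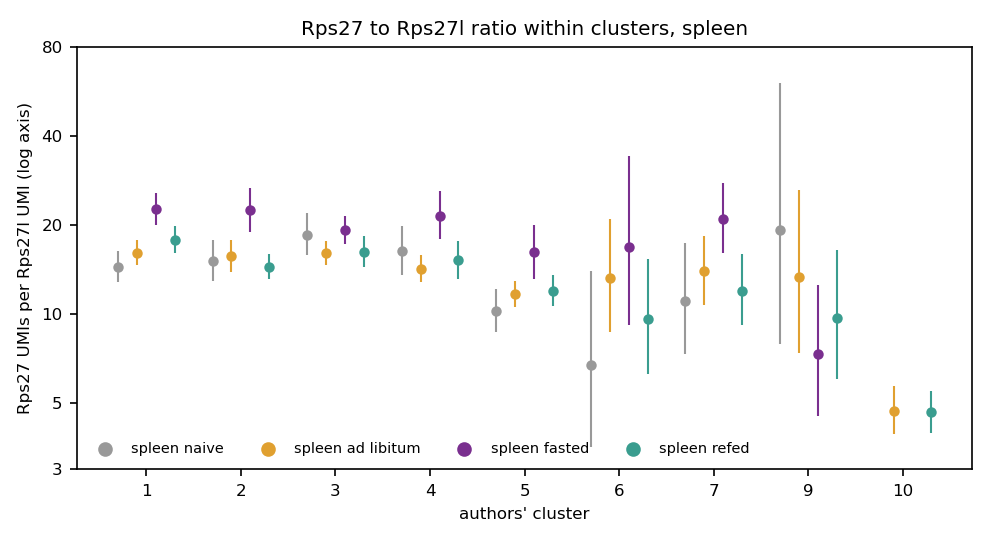
Rps27 UMIs per Rps27l UMI (vertical axis, log scale) in spleen cells of each deposited cluster with at least 20 cells (horizontal axis), by feeding state, with 95% intervals from counting error. In clusters 1, 2, 3, 4, 5, 6 and 7 the fasted point is above the ad libitum and refed points, with overlapping intervals in some, and cluster 10 lies near 4.7 in ad libitum and refed cells.

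Rps2 was lower in fasted cells. The log2 ratio of Rps2 in fasted against ad libitum cells was -0.17, -0.50 and -0.17 in spleen, bone marrow and tumour. In refed against fasted cells Rps2 was 0.41, 0.62 and 0.19 higher. Within clusters, Rps2 was lower in fasted than in ad libitum spleen in 8 of 8 and higher in refed than in fasted spleen in 8 of 8. Among cells of 3000 to 6000 UMIs, however, Rps2 was 0.12 higher in fasted than in ad libitum spleen. The tumour fasted to ad libitum ratio was 0.03 with the Rps2 UMIs of each population's highest cell taken out and the totals left unchanged. Since the largest tumour ad libitum cell held 75012 of that population's 546428 UMIs, this value does not show whether the ratio rests on single cells.

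Rps14 stood on the side of Rps27. Rps14, a small-subunit protein near the decoding site, was 0.15, 0.30 and 0.34 higher on the log2 scale in fasted than in ad libitum spleen, bone marrow and tumour. In refed against fasted cells its log2 ratios were -0.08, -0.21 and -0.27. Fau, which the naming rule misses and which encodes a ubiquitin-like protein fused to a small-subunit protein, was 0.17, 0.29 and 0.18 higher in fasted than in ad libitum cells of the same tissues, with log2 ratios of -0.18, -0.27 and -0.29 in refed against fasted cells.

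The other paralogs were compared with their parent genes. Rpl22l1 had 1177, 978 and 1104 CPM in tumour ad libitum, fasted and refed cells, 922, 829 and 974 CPM in bone marrow, and 705, 740.0, 707 and 769.8 CPM in spleen naive, ad libitum, fasted and refed cells. Its parent Rpl22, which is needed for T cell development in mice, had 1927, 2198 and 2007 CPM in tumour, 2155, 2218 and 2268 CPM in bone marrow, and 1719 to 1918 CPM in spleen. In bone marrow against spleen with ad libitum feeding Rpl22l1 and Rpl22 had log2 ratios of 0.31 and 0.33, with overlapping intervals. With ad libitum feeding Rpl22l1 was 0.67 (interval 0.55 to 0.78) and Rpl22 0.16 (interval 0.07 to 0.25) higher in tumour than in spleen on the log2 scale. In fasted against ad libitum tumour Rpl22l1 was lower (-0.27) and Rpl22 higher (0.19), and in spleen the ratios were -0.07 and 0.12. Among cells of 3000 to 6000 UMIs the Rpl22l1 ratios were 0.10 in tumour and 0.09 in spleen.

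Rpl6l, which GENCODE M21 lists as a processed pseudogene though its symbol does not mark it, had 193 to 322 CPM. It was 0.68 higher in tumour than in spleen with ad libitum feeding, and its parent Rpl6 0.47 higher. Rpl36al was 0.32 higher in bone marrow and 0.19 higher in tumour than in spleen with ad libitum feeding, while its parent Rpl36a was 0.57 and 0.61 higher. Rpl7l1 had 44.9 CPM in bone marrow fasted cells against 82.5 CPM in ad libitum cells (log2 -0.81, interval -1.35 to -0.30), and 86.5 CPM in refed cells, while its parent Rpl7 was 0.02 higher in fasted than in ad libitum bone marrow. Rpl13a, which is known in human myeloid cells for silencing translation away from the ribosome, had only 96.2 to 141 CPM. Many ribosomal protein genes have near-identical processed copies, and the sources used here do not give how the counting split such reads, so levels of single members are uncertain. Rps19bp1 had 30.1 to 42.4 CPM, and its fasted to ad libitum interval in bone marrow ran from -0.93 to 0.31.

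The share of ribosomal protein UMIs varied more between the deposited clusters than between tissues or diets. The sources used here do not give how those clusters were made, and these genes may have shaped them, so cluster values are descriptions. The share was 9.98% in cluster 9, 14.5% in cluster 6 and 18.4% in cluster 4, and 31.4% in cluster 2, 33.7% in cluster 11 and 35.8% in cluster 8. The clusters at the low end also had the fewest UMIs, with medians of 1379 in cluster 9 and 2228 in cluster 6. Mitochondrial genes took 8.18% and 12.6% of UMIs in those clusters, against 2.30% to 3.81% in the other 10. Of cluster 8 cells, 84.3% came from tumour, and of cluster 2 cells 32.8% came from bone marrow.

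**Figure D5:**
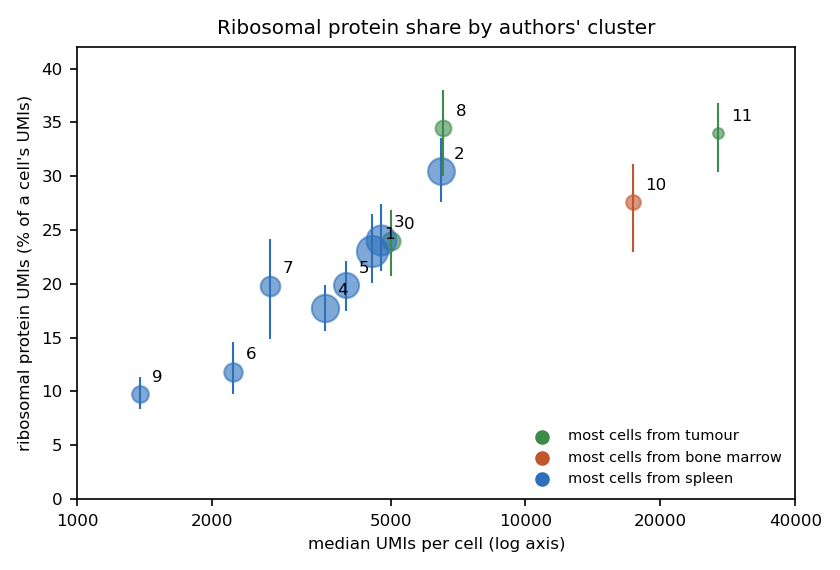
Ribosomal protein UMIs as a percentage of a cell's UMIs (vertical axis; points are the median cell, bars the middle 50 percent) against the median UMIs per cell (horizontal axis, log scale) of the 12 deposited clusters, which are numbered. Point area grows with the number of cells and colour gives the tissue that most cells came from. Clusters 9 and 6 lie lowest on both axes, and clusters 8 and 11 highest in share.

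The share also climbed with the UMIs of a cell over most bins. In spleen ad libitum cells it was 12.9% below 2000 UMIs, 18.6% from 3000 to 4000 and 25.7% from 6000 to 10000. In tumour fasted cells it was 15.8%, 22.2% and 31.7% in the same bins. In bone marrow refed cells it was 18.1% below 2000 UMIs and 12.7% from 2000 to 3000, and in spleen naive, spleen refed and bone marrow refed cells it was lower above 10000 UMIs than from 6000 to 10000, at 26.1% against 27.1% in spleen naive cells. The populations differed in depth, with medians of 3458 UMIs per cell in fasted and 4209 in ad libitum spleen, and of 4328 in fasted and 6889 in ad libitum bone marrow.

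Among cells of 3000 to 6000 UMIs, the diet order in spleen and bone marrow changed. Fasted cells had 23.5% ribosomal protein UMIs in spleen and 26.9% in bone marrow, against 20.6% and 21.2% in ad libitum cells and 22.4% and 21.9% in refed cells. The log2 ratio of fasted to ad libitum cells was then 0.19 in spleen and 0.34 in bone marrow, and that of refed to fasted cells -0.07 and -0.30. In tumour the window held 344 fasted but only 5 ad libitum cells. The tissue differences shrank in the same window: bone marrow was 0.04 above spleen with ad libitum feeding and 0.19 above it in fasted mice, and tumour 0.12 above spleen in fasted mice. Whether depth accounts for the tissue differences was not tested.

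Within clusters, the tissue difference in bone marrow was smaller than over all cells. Ad libitum bone marrow was above ad libitum spleen in 7 of 7 clusters, by 0.06 to 0.24 on the log2 scale. Rps2 was past the fold higher in 7 of 7 of these clusters. In fasted bone marrow against fasted spleen the sum was higher in 2 of 3 clusters and -0.033 in cluster 6, and Rps2 was higher in 2 of 3, past the fold in 1, and -0.18 in the other. Fasted tumour was above fasted spleen in 3 of 6 clusters, from -0.27 in cluster 7 to 0.65 in cluster 1. Fasted spleen was above ad libitum spleen in 7 of 8, from -0.08 in cluster 1 to 0.15 in cluster 9. No cluster had 20 tumour ad libitum cells.

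Genes of other steps of ribosome production and use were counted from fixed lists, chosen with earlier results of these data known. Of the ribosome biogenesis genes, 30 of 30 measured were higher in bone marrow than in spleen with ad libitum feeding, 25 of them past the fold (median log2 0.61), and 28 of 29 were higher in tumour than in spleen in fasted mice, 26 past the fold (median 0.68). Past the fold higher there were 23.7% and 20.6% of all genes, in the same order. In fasted against ad libitum cells, 22 of 26 were lower in spleen (11 past the fold, median -0.20), 26 of 30 in bone marrow (22 past the fold, median -0.60) and 15 of 30 in tumour (12 past the fold), where the other 15 were higher (9 past the fold, median over the list -0.05). Of all genes, 9.7%, 30.7% and 27.3% were past the fold lower in these comparisons, and 28.3% were past it higher in tumour. In refed against fasted cells, 21 of 24 were higher in spleen, 27 of 31 in bone marrow and 20 of 30 in tumour, with 14, 23 and 13 past the fold and medians of 0.26, 0.50 and 0.17. Of all genes, 9.24%, 27.7% and 24.8% were past the fold higher there. The list thus followed the members between tissues, but in the fasted spleen and bone marrow it lay below 0 while the summed members did not. That contrast depends on scaling and weighing. The summed members gave -0.044 in spleen and -0.019 in bone marrow with equal cluster weights, and 0.0081 and -0.026 with TMM factors.

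Nhp2, a core protein of the H/ACA particles that modify ribosomal RNA, had 60.1 CPM in fasted and 94.4 CPM in ad libitum spleen, and 93.0 CPM in fasted and 177 CPM in ad libitum bone marrow. Fbl, the methyltransferase of the C/D particles, had 76.9 CPM in fasted and 159.8 CPM in ad libitum bone marrow (log2 -1.01). The translation factors were higher in 30 of 37 in bone marrow and 29 of 37 in tumour against spleen with ad libitum feeding. In each, 19 were past the fold higher, against 23.7% and 26.1% of all genes, and 2 and 4 were past it lower, against 29.6% and 46.9%. In fasted against ad libitum cells 26 of 37 were lower in bone marrow, 23 of 37 in spleen and 19 of 37 in tumour. Of these, 18, 3 and 3 were past the fold, against 30.7%, 9.7% and 27.3% of all genes. Past it higher were 1, 1 and 6, against 29.7%, 10.2% and 28.3%. The mTORC1 pathway list was mixed, with 9 of 17 measured genes higher in fasted than in ad libitum spleen and 10 of 18 in bone marrow. Past the fold, the list held 3 higher and 0 lower in spleen, against 10.2% and 9.7% of all genes. In bone marrow the list held 8 and 4, against 29.7% and 30.7%. Its largest value was that of Pik3ip1, an inhibitor of the PI3 kinase that acts upstream of mTORC1, at 78.6 CPM in fasted and 17.5 CPM in ad libitum spleen and 75.3 CPM in fasted and 12.2 CPM in ad libitum bone marrow.

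Over the 10 populations, the genes outside the rule whose levels ran closest to the summed members were, of 1635 genes at 50 CPM or more throughout, Rack1, Eef1a1, Eif3m, Aimp1, Gm9493, Btf3, Ms4a6b and Naca. The root mean square difference of centred log2 CPM + 5 was 0.04 for Rack1, a scaffold protein that sits on the small subunit, and 0.07 for Eef1a1, which brings aminoacyl-tRNA to the ribosome. Rack1 had 2628, 2896 and 2832 CPM in tumour ad libitum, fasted and refed cells, and 2056, 2059, 2084 and 2257 CPM in spleen naive, ad libitum, fasted and refed cells. Among the members themselves, Rpl39 lay closest to the sum (0.02), with 3531 to 5042 CPM, and Rps27rt and Rps27 lay farthest from it among members at 20 CPM or more, at 0.36 each.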

How the data were processed

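The authors deposited a matrix of UMI counts per cell and gene, made with seqc, per the labels' protocols, and with mm10 named as the genome build in the submitters' processing notes, with a hashtag classification, a list naming each hashtag's population, and cluster numbers. The sources used here do not give how hashtags were classified or cells clustered. Of 13118 cells, 5606 called doublets and 33 unclassified were left out. The 7479 singlets carried 683 to 85495 UMIs and 0 repeated barcodes. They were clustered with scanpy 1.11.5 and leidenalg 0.10.2 (2000 variable genes, 30 components, 15 neighbours, resolution 0.8), and 2 clusters, 144 cells led by Cd3d, Cd3g and Cd3e and 80 cells led by Lyz2, Apoe and C1qa, were left out. Counts were summed per population and scaled to CPM over all UMIs. Differences are log2 ratios of CPM + 5 for genes that reach 20 CPM in at least 1 of the populations compared. Intervals are exact, 95%, binomial or Poisson, and cover counting error only, since 1 hashtag is 1 sample; the computation was tested on simulated data. UMI counts have no length correction, so members are not ranked by level.

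In each comparison the 3 highest and 3 lowest members at 50 CPM or more were eligible to be named, with the paralogs, their parents and 13 fixed members. Fau, Nhp2, Fbl and Pik3ip1 are from the fixed lists. Rpl37a, Rps29 and Rpl30 fall outside this rule and were chosen after their values were seen. A few genes are not reported here by name. The members and lists were chosen with earlier results of these data known. Alternatives were TMM factors from edgeR 4.0.16, totals that leave out mitochondrial and ribosomal protein genes, a pseudocount of 1, a fold of 0.5, no minimum level, all singlets, equal weight per cell or per cluster, a window of UMIs per cell, and each gene without its highest cell. The last took that cell's UMIs out of the gene's count but not out of the total, so it lowers levels most in small populations. Leaving out clusters 6 and 9, clusters 10 and 11, or the cell with neutrophil markers was added after seeing the data. Loci are from GENCODE M21, in which 16278 symbols matched, and start sequences are from RefSeq GRCm38.p6.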

Additional observations from a re-analysis of the deposited data

Results flagged for a closer look

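The summed ribosomal protein UMIs differed in direction between tissues on refeeding. The log2 ratio of refed to fasted cells was 0.0605 in spleen and 0.0605 in bone marrow, and -0.11 in tumour. Each tissue had 1 population per feeding state, so the difference between tissues was not tested. Among cells of 3000 to 6000 UMIs all 3 ratios were below 0, at -0.071, -0.30 and -0.0092 in spleen, bone marrow and tumour. Cells called doublets, which no comparison used, held 26.6% ribosomal protein UMIs over 5606 cells (95% exact binomial interval 26.61% to 26.64%). The 13 pseudogene columns that the naming rule leaves out held 134074 UMIs in the cells used, the most in Rps12-ps3 (755 CPM) and Rpl27-ps3 (628 CPM). Whether those UMIs come from the parent genes was not tested.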

How the results depend on the processing

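No paired analysis was possible because the labels give no replicate numbers within a population and each population is 1 sample. Log2 ratios of the summed ribosomal protein UMIs follow for fasted against ad libitum spleen, bone marrow and tumour, refed against fasted spleen, bone marrow and tumour, ad libitum bone marrow and tumour against ad libitum spleen, fasted bone marrow and tumour against fasted spleen, and ad libitum against naive spleen, in this order. TMM factors gave 0.0081, -0.026, 0.18, 0.14, 0.16, -0.15, 0.29, 0.58, 0.25, 0.75 and 0.0043. Equal cluster weights gave -0.044, -0.019, -0.041, 0.081, 0.091, -0.082, 0.13, 0.086, 0.19, 0.26 and 0.052. Of these, the value of ad libitum tumour against spleen rests on cluster 7 alone. Cells of 3000 to 6000 UMIs gave 0.19, 0.34, 0.51, -0.071, -0.30, -0.0092, 0.041, -0.21, 0.19, 0.12 and -0.088. Clusters 10 and 11 left out, added after seeing the data, gave 0.077, 0.10, 0.21, 0.050, 0.0095, -0.21, 0.25, 0.23, 0.27, 0.36 and -0.039. The same weight per cell gave, without fasted against ad libitum tumour, which moved by less than its interval, 0.089, 0.013, 0.034, 0.10, -0.072, 0.25, 0.30, 0.17, 0.32 and -0.052. With all singlets kept, the 9 ratios from fasted against ad libitum bone marrow to fasted tumour against fasted spleen were 0.094, 0.092, 0.056, 0.021, -0.10, 0.28, 0.35, 0.32 and 0.38. Clusters 6 and 9 left out, also added after seeing the data, gave, for fasted against ad libitum bone marrow, refed against fasted tumour and the 4 tissue comparisons, 0.021, -0.12, 0.32, 0.36, 0.27 and 0.41. Of the diet ratios, fasted against ad libitum spleen and tumour changed sign with equal cluster weights, bone marrow also with TMM factors, and refed against fasted spleen and bone marrow in the depth window. Ad libitum against naive spleen changed sign with TMM factors and with equal cluster weights. Of the tissue ratios, tumour against spleen with ad libitum feeding changed sign in the depth window, which holds 5 such tumour cells. The causes were not tested.

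Of 402 alternatives to 67 values of named members past the fold, 353 stayed past it in the same direction, 42 came below it and 7 changed sign. The alternatives largely reuse the same cells, and the pseudocount of 1 moved no value beyond its interval, so the pooled count does not measure support. All 7 sign changes came in the depth window. In the depth window Rpl22l1 gave 0.10 in fasted against ad libitum tumour, Rps20 -0.34 and Rps12 -0.15 in refed against fasted bone marrow, and Rpl7l1 -0.55 in refed against fasted tumour. Rps27l gave -0.057 and Rps12 -0.055 in ad libitum bone marrow against spleen, and Rpl36a -0.13 and the median over members -0.29 in ad libitum tumour against spleen. The tumour comparisons rest on 43 ad libitum and 90 refed cells.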
